A study of Mus musculus with 8 samples.

Results

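Transporters of bile constituents and drugs were examined in AML12 mouse hepatocytes with and without irisin, a hormone cleaved from the membrane protein FNDC5. The arrays ask which genes irisin regulates in these cells. Members were all genes on the array of the ABCB, ABCC, ABCG (without Abcg1), SLCO, SLC22, SLC47 and SLC10 families, chosen by gene symbol. They came to 74 genes with 92 probes, of 21612 named genes and 39429 probes. AML12 is a single line derived from hepatocytes of mice that carry a human TGFα transgene, so all arrays share that background. Control cells received no irisin, and treated cells received irisin at 0.5 µg/ml for 24 h. Cells of both groups grew in DMEM F-12 with 10% fetal bovine serum. RNA of each group was hybridized to 4 single-color Agilent arrays, where the number of arrays limits the precision. The labels do not say whether replicates were separate cultures, so p-values measure the spread between these samples, which may be technical.

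Hepatocytes take bile acids, hormones and drugs from blood through carriers of the SLC10, SLCO and SLC22 families on the sinusoidal side. ABC pumps then move bile salts, phospholipid, sterols and conjugates across the canalicular membrane into bile, and other pumps return conjugates to blood. The carriers are known to fall in dedifferentiated or cultured hepatocytes.

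Signals were given on the log2 scale with the 75th percentile of each array set to 0, and differences are irisin minus control. The 75th percentile itself was 372 to 534 on the control arrays and 682 to 850 on the irisin arrays. The median change of all 14311 tested genes was therefore -0.064 after this scaling, 0.51 after scaling to spike-in probes and 0.67 without scaling. All control arrays lay on slide 1 and all irisin arrays on slide 2, so the treatment cannot be told apart from slide or scan. Probes entered the test when either group, or both, had them well above background on each of its 4 arrays. A probe was called when it changed at least 1.5-fold with an adjusted p under 0.05 in limma. Of 12 hepatocyte markers, 11 were well above background on all 8 arrays, among them Alb and Ttr, whereas Cps1 was so on 1 array of each group. No hepatocyte marker was called, but their summed level was 428 to 479 times the 75th percentile in control and 345 to 405 times in irisin cells. These sums rest most on the brightest markers, Krt18 (-0.47) and Trf (-0.39). Changes were also below 0 for Apoa2 (-0.42), Apoa1 (-0.17), Serpina1a (-0.097), Krt8 (-0.095) and Ttr (-0.049). They were above 0 for Apob (0.24), Fgb (0.14), Alb (0.11) and Ahsg (0.050), and the median was -0.095. Of 7 cholangiocyte markers, 4 were detected on all 8 arrays, including Krt19 and Sox9, with sums of 55.4 to 61.9 and 58.0 to 60.9. The sums of 7 Kupffer cell and leukocyte markers were 12.8 to 14.9 and 11.4 to 13.2, with Lyz2 on no array. Those of 7 endothelial markers were 0.737 to 0.826 and 0.441 to 0.613, with 3 of the 7 on no array and Pecam1 called lower (-0.61). Kdr was the brightest endothelial marker and was not called (-0.56). Stellate cell markers were near background, with 5 of 7 on no array and sums of 0.0376 to 0.0526 in control and 0.0230 to 0.0275 in irisin cells. Hand2 was called lower (-0.80). It was well above background on 4 control and 3 irisin arrays and was tested through the control group alone, so its direction is no support for a fall. All probes on no array had a median change of -0.76 with this scaling and -0.025 without, so sums near background are no measure of a fall. Marker sums and changes are given with the 75th percentile scaling alone, and the mean log2 75th percentile was 0.74 higher on the irisin arrays. Their direction under other scalings is not given here. The part of the marker differences in the transporter results was not tested.

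Many transporters typical of liver were not detected in AML12 cells. By its best probe, a gene was well above background on all 8 arrays for 37 of the 74 genes, on some arrays for 8 and on no array for 29. For 3 of the tested genes, among them Slc10a1, another probe was on no array, so their detection rests on the choice of probe. Among the 9 canalicular exporters, 5 were detected on all 8 arrays. The other 4 were on no array, namely Abcb11 (the bile salt export pump), Abcg5 and Abcg8 (which together export cholesterol and plant sterols) and Slc47a1 (a proton antiporter of organic cations). Of 8 genes grouped here as hepatocyte uptake carriers, Slco1a4, Slco1b2, Slco2b1 and Slc22a7 were on no array, and Slco1a1 was on 2 control and 3 irisin arrays. The organic cation carriers Slc22a2 and Slc22a3 were on no array. In contrast, all 5 intracellular ABCB transporters were detected on every array, as were 6 of 7 exporters of the multidrug resistance protein (MRP) group.

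**Figure D1:**
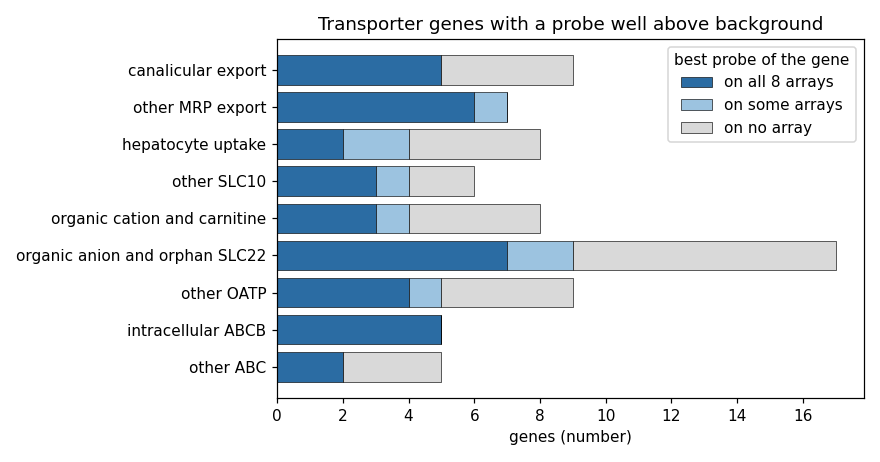
Number of transporter genes in each role (x axis) whose best probe was well above background on all 8 arrays (dark), on some (light) or on none (grey). Intracellular ABCB genes were detected throughout, while 4 of 9 canalicular exporters and 4 of 8 uptake carriers were on no array.

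The remaining genes on no array were Slc22a8, Slc22a12, Slc22a16, Slc22a19, Slc22a20, Slc22a22, Slc22a26, Slc22a27, Slc22a29, Slc47a2, Abcb5, Abcc9, Abcg3, Slco4c1, Slco5a1, Slco6c1, Slco6d1, Slc10a4 and Slc10a5. Detection on some arrays without a test was found for Slc22a6 (3 control and 1 irisin), Slc22a14 (2 irisin), Slco6b1 (1 irisin) and Slc10a6 (1 irisin). The test covered 50 probes of 39 genes. Of these probes, 46 were well above background on all 8 arrays, and 4 passed through the irisin group alone. These 4 belonged to Slco1a5, Abcc12, Slc22a28 (its dimmer probe) and Abcg4 (its dimmer probe). They had to be brighter than background in irisin cells to be tested, so their direction is no support for a rise.

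Few transporters differed between irisin and control arrays past the threshold. Of the 50 tested probes, 2 were called (4.0%), compared with 12.4% of all 24092 tested probes. Both were lower, Slc10a7 and Slc22a28, and 0 were higher, whereas 11.7% of all probes were called lower and 0.714% higher. By gene, 2 of 39 were called, against 10.7% of all genes. At an unadjusted p under 0.05, limma had 13 probes, 6 higher and 7 lower, and the linear model without moderation had 10. An adjusted p under 0.05 without a fold threshold was met by 9 member probes, 3 higher and 6 lower, against 24.5% of all probes. The signals of the groups did not overlap for 10 of 50 member probes (20.0%), 6 lower and 4 higher. Among all probes 27.2% did not overlap, 23.0% lower and 4.18% higher. Of the 39 genes, 14 had a change above 0 and 25 below, with a median of -0.033. In total, 37 genes stayed within 1.5-fold and 27 within 0.25 on the log2 scale.

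The split of calls depended on the scaling. With quantile normalization 5 member probes were called higher and 2 lower, against 2.78% and 4.24% of all probes. Cyclic loess gave 5 higher and 1 lower, against 2.88% and 3.84%. In both settings the 5 higher calls were Slc22a21, Slco4a1 and 3 of the probes tested through the irisin group alone (Slco1a5 and the dimmer probes of Slc22a28 and Abcg4), so the count of higher calls is no result about the members. Spike-in scaling gave 22 higher and 1 lower, while no scaling gave 40 higher and 1 lower. Slc10a7 was among the members called lower in each of these 4 settings. Among all probes, 32.4% were called higher and 33.9% in either direction with spike-in scaling, and 61.9% higher and 62.6% in either direction without scaling. With normexp background correction no member was called, against 0.158% of all probes higher and 0.365% lower, and limma had 9 members at an unadjusted p under 0.05.

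**Figure D2:**
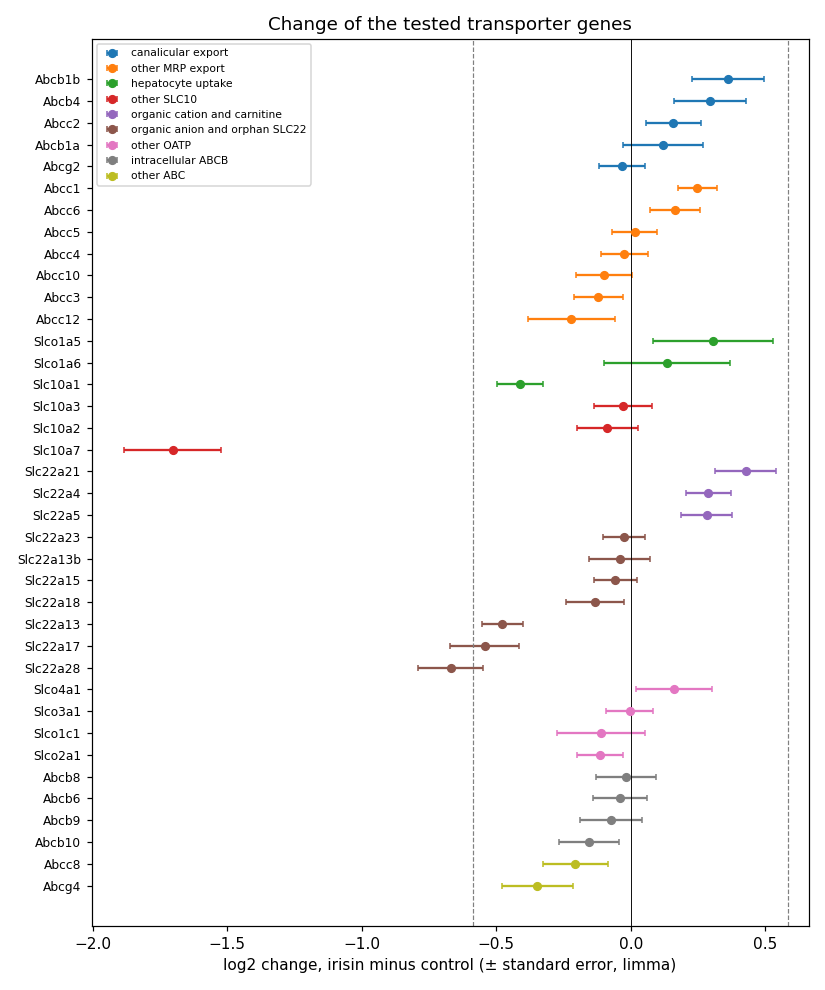
Log2 change, irisin minus control (x axis), with its standard error from limma for the tested transporter genes reported here, ordered and colored by role. Dashed lines mark 1.5-fold, which Slc10a7 (-1.70) and Slc22a28 (-0.67) passed.

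Slc10a7 showed the largest change of the tested members. It is a member of the bile acid carrier family that lies in the secretory pathway, is needed for normal glycosylation and bone growth, and is not known to carry bile acids. In control cells its log2 signal was -3.45, -3.79, -3.98 and -3.99. In irisin cells it was -5.61, -5.24, -5.97 and -5.21. Every irisin array was below every control array. The change was -1.70 with a standard error of 0.18, or 3.26-fold lower (adjusted p = 0.000145, limma). The processed signal before scaling was also lower, at 33.9, 35.2, 33.8 and 31.4 in control and 16.3, 18.1, 12.8 and 23.0 in irisin cells. The probe was dim, in decile 3 of the tested probes by mean signal, and was well above background on all 8 arrays. Without scaling the change was -0.97, and with spike-in scaling -1.13. After normexp background correction, which adds an offset of 50 to signals of this size, the change was -0.41 and was not called. Leaving out each array in turn gave -1.80 to -1.55, called every time.

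The other tested SLC10 members outside hepatocyte uptake were Slc10a2, the ileal sodium-dependent bile acid carrier, and Slc10a3, an orphan member. The brighter Slc10a2 probe had a change of -0.088 (adjusted p = 0.650, limma) and the other -0.14. Slc10a3 had a change of -0.030. Neither gene separated the groups, in contrast to Slc10a7.

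The promoter of Slc10a7 is printed because this gene had the largest decrease. Those of Slc22a5 and Slc22a4 are printed because these genes are neighbors with changes of the same sign. Sequences come from RefSeq (GRCm38.p6), from 250 bases before to 50 bases after the gene start, 5′ to 3′ on the gene's strand. Capitals mark GC boxes (GGGCGG), E-boxes (CACGTG) and nuclear receptor hexamers (AGGTCA), searched on both strands. Slc10a7 lies at chr8:78509078-78509377 on the plus strand, Slc22a5 at chr11:53891654-53891953 and Slc22a4 at chr11:54028055-54028354, both on the minus strand.
Slc10a7: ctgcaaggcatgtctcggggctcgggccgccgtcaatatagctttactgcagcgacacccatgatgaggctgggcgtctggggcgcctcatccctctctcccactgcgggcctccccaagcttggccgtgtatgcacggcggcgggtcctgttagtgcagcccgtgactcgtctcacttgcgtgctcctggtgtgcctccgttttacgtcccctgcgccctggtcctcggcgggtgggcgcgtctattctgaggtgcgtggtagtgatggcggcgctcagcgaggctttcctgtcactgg
Slc22a5: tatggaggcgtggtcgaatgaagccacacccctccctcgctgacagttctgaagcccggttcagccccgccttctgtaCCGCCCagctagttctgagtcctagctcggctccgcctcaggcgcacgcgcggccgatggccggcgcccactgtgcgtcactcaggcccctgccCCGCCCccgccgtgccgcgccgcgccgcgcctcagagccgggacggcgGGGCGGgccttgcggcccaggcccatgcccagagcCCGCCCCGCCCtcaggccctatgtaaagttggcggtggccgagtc
Slc22a4: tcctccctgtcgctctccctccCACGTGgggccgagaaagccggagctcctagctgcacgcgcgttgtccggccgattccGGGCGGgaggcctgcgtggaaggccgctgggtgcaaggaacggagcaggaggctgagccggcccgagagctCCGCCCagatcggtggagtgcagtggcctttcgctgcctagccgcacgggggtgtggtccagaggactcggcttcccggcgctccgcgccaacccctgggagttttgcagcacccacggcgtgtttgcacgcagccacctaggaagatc
The Slc10a7 window held none of these letters. The Slc22a5 window held 5 GC boxes, of which a pair overlaps, and the Slc22a4 window held 2 GC boxes and 1 E-box. Of all 32851 promoters, 35.7% held a GC box, 7.15% an E-box and 16.3% the hexamer. GC content was 65.0% for Slc10a7, 72.7% for Slc22a5 and 69.0% for Slc22a4, and its median over all promoters was 52.7%. Promoters were matched for 58 of the 74 genes, in 69 windows, of which 22 held a GC box, 4 an E-box and 13 the hexamer.

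The 3 tested carriers of carnitine and organic cations were all higher in irisin cells. Slc22a5 imports carnitine for fatty acid oxidation, Slc22a4 carries ergothioneine, and Slc22a21 is a mouse carnitine carrier. They are consecutive protein-coding genes on chromosome 11 in the RefSeq table of GRCm38.p6, and their sequences are related. For Slc22a4 the log2 signals were -2.00, -2.17, -2.26 and -2.10 in control and -1.83, -1.90, -1.87 and -1.78 in irisin cells. All irisin arrays were above all control arrays, with a change of 0.29 and a standard error of 0.084 (adjusted p = 0.0289, limma). For Slc22a21 they were -5.11, -4.76, -5.09 and -4.80 in control and -4.44, -4.36, -4.67 and -4.58 in irisin cells. Here too the groups did not overlap, with a change of 0.43 and a standard error of 0.11 (adjusted p = 0.0173, limma). For Slc22a5 they were -2.37, -2.44, -2.53 and -2.22 in control and -2.18, -1.94, -2.18 and -2.13 in irisin cells. The groups again stayed apart, with a change of 0.28 that did not pass the adjusted p (0.0526, limma). None of the 3 genes reached 1.5-fold. Slc22a21 did so with quantile normalization (0.72) and cyclic loess (0.75), and all 3 did with spike-in scaling (0.86 to 1.00) and without scaling (1.02 to 1.17). With normexp background correction the changes were 0.10 for Slc22a21, 0.32 for Slc22a4 and 0.28 for Slc22a5, none with an adjusted p under 0.05. With the replicate number as a block, Slc22a4 had an adjusted p of 0.0707 (limma). When single arrays were left out, the adjusted p (limma) reached 0.0939 for Slc22a4 and 0.0557 for Slc22a21.

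**Figure D3:**
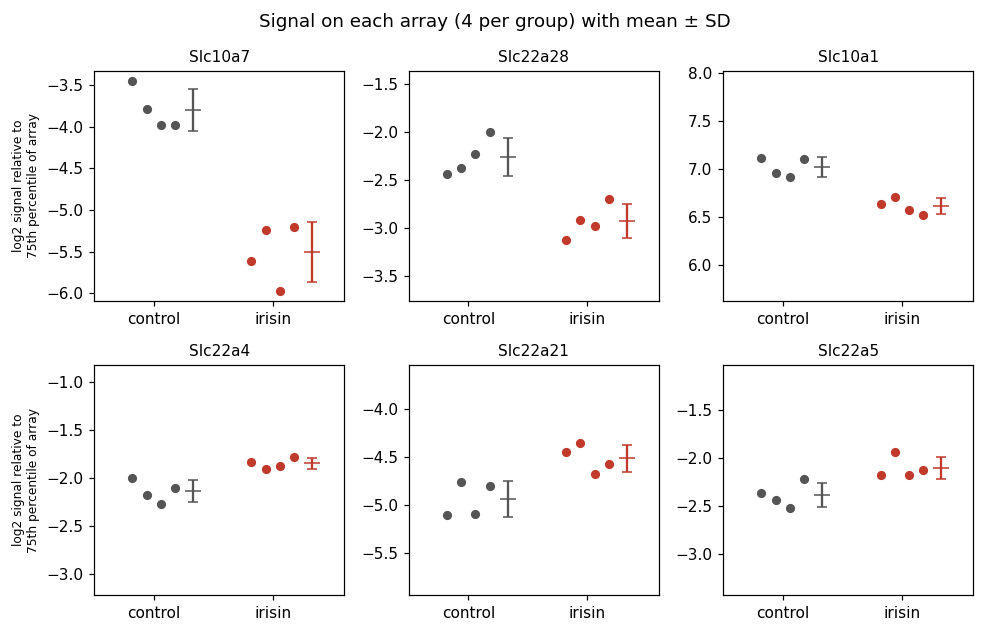
Log2 signal, with 0 at the array's 75th percentile (y axis, each panel spanning its own range), for 6 transporter genes on 4 control (grey) and 4 irisin (red) arrays, with mean ± SD beside the points. The groups do not overlap in any panel. Slc10a7 and the brighter probes of Slc22a28 and Slc10a1 are lower, and the 3 carnitine family genes higher, in irisin cells.

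Slc22a28, a rodent member of the organic anion transporter group, was the other called gene. Its log2 signals were -2.44, -2.38, -2.23 and -2.00 in control and -3.12, -2.92, -2.98 and -2.70 in irisin cells. The groups did not overlap, with a change of -0.67 and a standard error of 0.12 (adjusted p = 0.00220, limma). Before scaling, the processed signals overlapped, at 68.7, 93.5, 114 and 124 in control and 91.4, 90.3, 102 and 131 in irisin cells. The change without scaling was 0.069. Without control replicate 4 the change was -0.58, under 1.5-fold. The dimmer probe of this gene, well above background on 2 control arrays and all 4 irisin arrays, had a change of 0.21. Slc22a28 lies on chromosome 19 in a run of 5 related genes with Slc22a19, Slc22a26, Slc22a27 and Slc22a29, which were on no array. Its probes changed in opposite directions and binding to related transcripts was not tested, so the assignment of its signal is uncertain.

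The other tested members of this group had changes below 0 on their brightest probe. Slc22a13, a nicotinate and urate carrier, had signals of -3.14 to -3.06 in control and -3.71 to -3.52 in irisin cells, without overlap, and a change of -0.48 (adjusted p = 0.00107, limma). Slc22a17, a receptor for lipocalin 2, had signals of -4.97 to -4.87 in control and -5.68 to -5.06 in irisin cells, with a change of -0.54 (adjusted p = 0.00979, limma). Irisin replicate 2 was the highest of its group for Slc22a17, and without it the change was -0.68 and was called. With quantile normalization Slc22a17 had a change of -0.19 (adjusted p = 0.355, limma) and Slc22a13 one of -0.35. The sign of both turned with the scaling, to 0.033 for Slc22a17 and 0.098 for Slc22a13 with spike-in scaling and to 0.19 and 0.26 without scaling. Slc22a13 and Slc22a17 were chosen after their values were seen. The brighter Slc22a15 probe changed by -0.058 and a dim probe by -0.54, so the probes of this orphan carrier disagreed. The orphan carrier Slc22a23 had a change of -0.026 and Slc22a18, a carrier gene of an imprinted region, one of -0.13. The median over the 7 tested genes of the group was -0.13.

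Slc10a1 (NTCP), the sodium-dependent importer of conjugated bile acids, was measured by a pair of probes that disagreed in level. The bright probe gave log2 signals of 7.12, 6.96, 6.92 and 7.11 in control and 6.64, 6.72, 6.58 and 6.53 in irisin cells. The groups did not overlap, and the change was -0.41 with a standard error of 0.085 (adjusted p = 0.00459, limma), which is under 1.5-fold. The mean of the bright probe in control cells, 7.03, was above those of Alb (4.34) and Ttr (5.53). The other probe was on no array, and which of them measures the transcript could not be settled. Without scaling the change of the bright probe was 0.33, with spike-in scaling 0.16 and with quantile normalization -0.028, so its direction depended on the scaling. Slco1a5 and Slco1a6 belong to the organic anion transporting polypeptides (OATP), a family that imports bile acids, steroid conjugates and drugs. Slco1a6 had a change of 0.14 with a standard error of 0.23, and its irisin arrays ran from -2.10 to -0.82, around the control range of -1.52 to -1.20. Slco1a5, tested through the irisin group alone, had a change of 0.31 (adjusted p = 0.388, limma).

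Canalicular exporters did not pass the test. Abcb1a and Abcb1b, the mouse P-glycoproteins, and Abcb4, which moves phosphatidylcholine into bile, are consecutive genes on chromosome 5. Abcb1b signals were -1.48, -1.41, -1.16 and -1.33 in control and -1.22, -1.17, -0.63 and -0.92 in irisin cells. Abcb4 signals were -1.24, -1.26, -1.16 and -1.28 in control and -1.13, -1.21, -0.54 and -0.88 in irisin cells. Abcb1a signals were -1.31, -1.10, -1.32 and -1.33 in control and -1.25, -1.53, -0.75 and -1.04 in irisin cells. In each of these genes irisin replicate 3 was the highest of the 8 arrays and replicate 4 the next, and the groups overlapped. The changes were 0.36 for Abcb1b (adjusted p = 0.0791, limma), 0.29 for Abcb4 (0.154) and 0.12 for Abcb1a (0.638). Without irisin replicate 3 they were 0.24, 0.16 and -0.011. With single arrays left out, the adjusted p (limma) ran from 0.0451 to 0.193 for Abcb1b and from 0.0471 to 0.353 for Abcb4. With the replicate number as a block it was 0.0337 and 0.133 (limma). Neither gene reached 1.5-fold in these fits. Abcc2 (MRP2), which exports conjugated bilirubin and glutathione conjugates, had signals of 0.34 to 0.58 in control and 0.43 to 0.79 in irisin cells, with a change of 0.16. Abcg2, an exporter of sulfate conjugates and drugs, had 4.66 to 4.93 and 4.67 to 4.83, with a change of -0.033 and a standard error of 0.086. The groups overlapped for both. With spike-in scaling Abcb1a (0.70), Abcb1b (0.94), Abcb4 (0.87) and Abcc2 (0.73) were called higher, and Abcg2 (0.54) was not. Without scaling each of these genes was called higher. In these settings 32.4% and 61.9% of all probes were called higher.

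**Figure D4:**
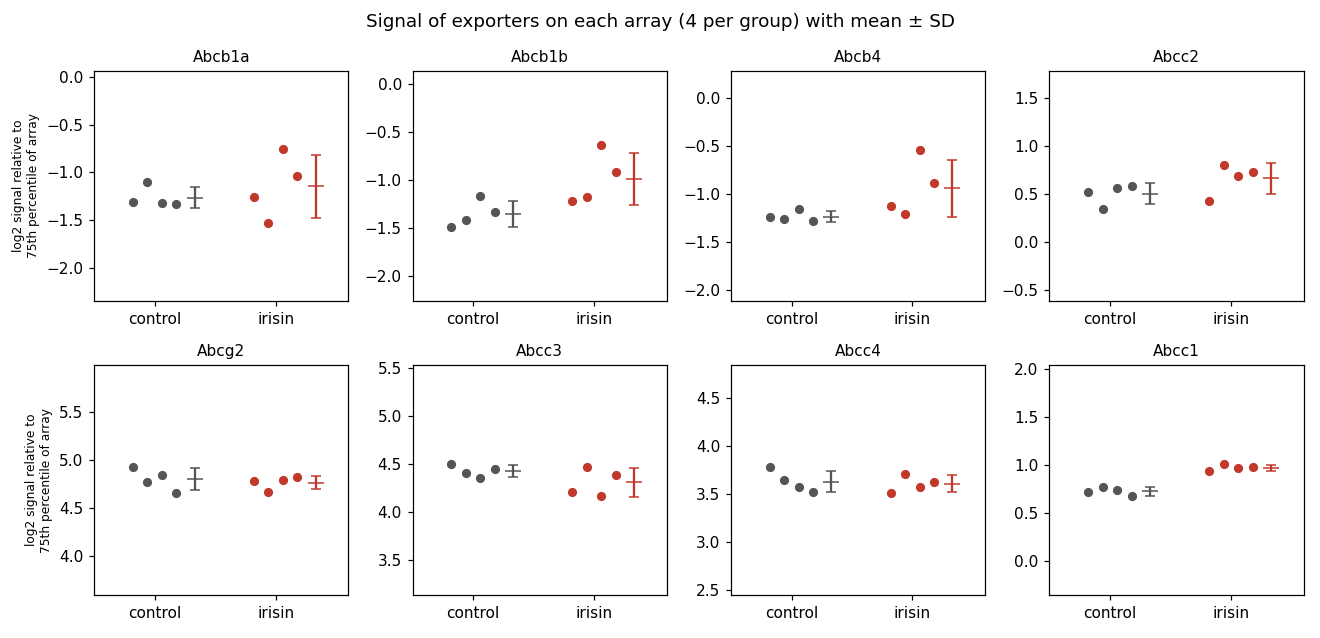
Log2 signal, with 0 at the array's 75th percentile (y axis, each panel spanning its own range), for 5 canalicular and 3 other exporters on 4 control (grey) and 4 irisin (red) arrays, with mean ± SD beside the points. The groups are apart for Abcc1 alone (0.67 to 0.78 against 0.94 to 1.01), and irisin replicate 3 is highest for Abcb1a, Abcb1b and Abcb4.

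Of the 7 other MRP genes, Abcc1, a broad exporter of glutathione conjugates, had groups that did not overlap. Its signals were 0.72, 0.78, 0.74 and 0.67 in control and 0.94, 1.01, 0.97 and 0.98 in irisin cells. The change was 0.25 with a standard error of 0.072 (adjusted p = 0.0275, limma), below 1.5-fold. With normexp background correction it was 0.17 (adjusted p = 0.279, limma). With the replicate number as a block the adjusted p was 0.101, and with single arrays left out it reached 0.0818 (limma). With spike-in scaling the change was 0.82 and Abcc1 was called. Abcc3 and Abcc4, which return bile acids and conjugates to blood, had changes of -0.12 and -0.023, and their groups overlapped. The 4 probes of Abcc5, an exporter of cyclic nucleotides, ranged from 0.010 to 0.096. Abcc6, linked to ATP release, had a change of 0.17, Abcc10 one of -0.099, and Abcc12, tested through the irisin group alone, one of -0.22.

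No other OATP gene was called. Slco2a1, the prostaglandin carrier, had signals of 5.22 to 5.37 in control and 5.06 to 5.34 in irisin cells, with a change of -0.11. Slco3a1 had -0.0035 on its brighter probe and 0.17 on the other, Slco4a1, a thyroid hormone carrier, had 0.16, and Slco1c1 had -0.11. Slco4a1 was called higher with quantile normalization (0.62) and cyclic loess (0.62). No probe of these genes had groups apart after scaling to the 75th percentile.

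No probe of the intracellular ABCB transporters was called. Abcb6, a porphyrin carrier, had a change of -0.040, and Abcb8, a mitochondrial transporter, one of -0.017. Abcb10, a mitochondrial transporter of heme synthesis, had signals of 1.73 to 2.00 in control and 1.54 to 1.96 in irisin cells, with a change of -0.15. Abcb9, a lysosomal peptide transporter, had -0.072. Of the remaining ABC genes, Abcc8, the sulfonylurea receptor, had probes at -0.21 and 0.28, and Abcg4, a sterol transporter, had -0.35 on its brighter probe. The dimmer Abcg4 probe was well above background on no control array and on all 4 irisin arrays. Its signals were -8.75, -7.69, -8.37 and -7.01 in control and -7.11, -7.19, -7.27 and -7.16 in irisin cells. The groups overlapped through control replicate 4 (adjusted p = 0.0920, limma). Of 9 genes with more than 1 tested probe, 4 had probes of opposite sign.

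**Figure D5:**
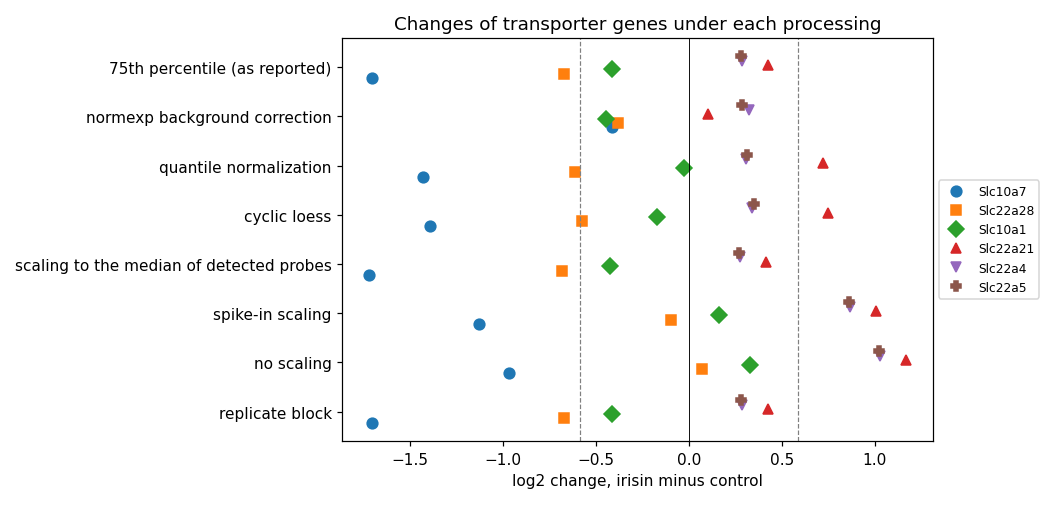
Log2 change, irisin minus control (x axis), of 6 transporter genes under 8 ways of processing (y axis), with dashed lines at 1.5-fold. Slc10a7 is below 0 throughout but moves to -0.41 with normexp, Slc22a28 moves to 0.069 without scaling, and the carnitine family genes are above 0 throughout.

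Genes of bile acid synthesis and its control were examined beside the transporters, from a list of 40 genes. Of these, 33 were tested, 0 were called higher and 5 lower, against 10.2% of all genes called lower and 0.531% higher. At an unadjusted p under 0.05, limma had 2 of the 33 higher and 7 lower. The genes called lower were Cyp46a1, cholesterol 24-hydroxylase (-1.05), Gpbar1, the membrane bile acid receptor (-0.80), Nr0b2 (SHP), a nuclear receptor that represses bile acid synthesis (-0.79), Slc27a2, a very long chain acyl-CoA synthetase (-0.78), and Slc27a5, the bile acid CoA ligase (-0.59). In the same order, their mean log2 signals in control cells were -3.89, -2.58, -5.95, -5.54 and -5.58. Among all probes, those on no array had a median change of -0.76 after the same scaling. The median over the 33 genes was -0.080. Nr1h4 (FXR), the nuclear bile acid receptor, had a change of -0.20 (adjusted p = 0.0747, limma) and Hnf4a one of -0.097. Cyp7a1, the rate-limiting enzyme of bile acid synthesis, Cyp7b1, Cyp8b1, Slc51a and Atp8b1 were on no array, and Nr1i3 (CAR) was on 1 control array. Quantile normalization and cyclic loess each had 2 pathway genes called higher and 2 lower. Of all probes, 2.78% were called higher and 4.24% lower with quantile normalization, and 2.88% and 3.84% with cyclic loess. With spike-in scaling 14 genes were called higher and 0 lower, and without scaling 21 higher and 0 lower, settings in which 32.4% and 61.9% of all probes were called higher.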

How the data were processed

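Cy3-labeled RNA of 8 AML12 samples was hybridized to Agilent arrays. Per the file headers, the authors processed scans with Feature Extraction 12.0.3.1, and they deposited background-subtracted signal intensity on a linear scale, not normalized between arrays. A deposited value table of intensity deviated from the scanner values by at most 0.000500%. Spots marked as outliers, at most 0.463% of an array, were left out. Samples were grouped by their labels.

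Processed signals were divided by the array's 75th percentile and put on the log2 scale. Probes well above background were 59.5% to 64.1% per array. Names came from accessions matched to RefSeq genes of GRCm38.p6, with 28663 of 39429 probes named. The files give mm9 positions, so no probe coordinates are printed. Groups were compared by limma 3.58.1 in R 4.3.3 with Benjamini-Hochberg adjustment over 24092 probes, at the fold and p thresholds of the study. The script was tested on simulated data. The brightest tested probe stood for a gene.

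Members and lists were chosen with earlier results of these data known, among them the decrease of Slc10a7, so its test is no independent support. Roles were assigned from general knowledge. Values are given for called members, canalicular and uptake carriers, SLC10 genes, and up to 3 of the brightest genes of each other role, and other members named with values were picked after these were seen. Alternatives changed the background, normalization, scaling, source table, filter, variance model, threshold, pairing, probe choice and the arrays used. Some members are counted but not reported by name here.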

Additional observations from a re-analysis of the deposited data

Results flagged for a closer look

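Abcb1a, a P-glycoprotein gene, had 1 control array apart from the others. Control replicate 2 was at -1.10 on the log2 scale, while the other control arrays were at -1.33 to -1.31. This was the 1 such case in 60 groups of 4 arrays checked, and chance gives about 1 in 20.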

How the results depend on the processing

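Against 2 called transporter probes and 2 genes (median change -0.033) and 5 called bile acid pathway genes, normexp gave 0, 0 and 0 (limma, with 9 transporter probes at an unadjusted p under 0.05). Quantile normalization gave 7 probes and 5 genes, and cyclic loess 6 and 4. Spike-in scaling gave 23, 15 and 14 (median 0.54), and no scaling 41, 31 and 21 (median 0.71). Without the filter on dim probes they were 29, 24 and 10 (median -0.38), with 25 of the 35 member probes on no array called lower, as were 8688 of all 12645 such probes. An adjusted p alone gave 9 probes and 8 genes, the 2-fold threshold 1, 1 and 1, and averaging a gene's probes 1 gene. Leaving out each array gave 2 to 3 probes, 1 to 3 genes, 4 to 5 pathway genes and medians of -0.059 to 0.00041. The 1 gene came without control replicate 4, where Slc22a28 was lost, and the 3 without irisin replicate 2, where Slc22a17 was added. Without scaling, values below 0 turned above 0 for most transporters, among them genes called without scaling, Abcb6 to 0.70, Abcb8 to 0.72, Abcc3 to 0.62, Abcc4 to 0.71, Abcg2 to 0.71, Slc10a2 to 0.65, Slc10a3 to 0.71, Slc22a15 to 0.68, Slc22a18 to 0.61, Slc22a23 to 0.71, Slco2a1 to 0.62 and Slco3a1 to 0.73. Slc22a28 turned to 0.069 and lost its call. Abcb10 turned to 0.58, Abcc8 to 0.53, Abcg4 to 0.39, Slc10a1 to 0.33, Slc22a13 to 0.26 and Slc22a17 to 0.19, with no call. The cause of these shifts was not tested. Of 608 values of named genes under all alternatives, 507 kept direction and call, and 55 changed sign with no call. Another 28 gained and 5 lost the call, and 13 changed sign with a call. With no scaling and spike-in scaling both left out, 550 values remained. Of these, 505 kept direction and call, 35 changed sign with no call, 6 gained and 4 lost the call.

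Replicate numbers did not pair the arrays, with correlations of deviations of 0.11, -0.35, -0.13 and 0.17 for the same numbers. With the replicate number as a block, 2 probes, 2 genes and 5 pathway genes were called and the median was -0.033. Dim probes limit the precision. The 35 member probes on no array had a median change of -0.76 with scaling and -0.021 without, and all such probes -0.76 and -0.025.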

Other observations

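Among bile acid pathway genes that were not called, Akr1d1, the steroid reductase of bile acid synthesis, had a change of 0.42 (adjusted p = 0.0276, limma) and Ch25h, cholesterol 25-hydroxylase, one of 0.39 (adjusted p = 0.0386, limma). Akr1d1 was well above background on all 8 arrays and Ch25h on 3 control and 4 irisin arrays. Ch25h was thus tested through the irisin group alone, so its direction is no support for a rise. The bile acid conjugating enzyme Baat was well above background on no control array and on 3 irisin arrays, and was not tested.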
